A study of Mus musculus with 6 samples.

Results

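The tripartite motif (TRIM) genes outside the *Trim30* cluster were examined in monocytes that could or could not receive a type I interferon signal in the inflamed central nervous system (CNS) of mice treated with recombinant IFN-β. Members were the protein-coding genes whose GENCODE M21 symbol is *Trim* followed by a digit, without the *Trim30*, *Trim12* and *Trim34* genes of the chromosome 7 cluster. The rule used names only and found 60 genes among the 54232 gene identifiers in the count tables. 29 of the 60 had enough counts to be tested, 16 had a few counts, and 15 had 0 counts in every library.

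RNA-seq had been run on 3 libraries of WT monocytes and 3 libraries of *Ifnar1*-/- monocytes, which lack the type I interferon receptor subunit IFNAR1. Both came from mixed bone marrow (BM) chimeras, in which irradiated GFP+ mice had received WT (CD45.1) and *Ifnar1*-/- (CD45.2) BM in equal parts, so the 2 kinds of monocytes matured in the same hosts. After 6 to 7 weeks the chimeras were immunized for experimental autoimmune encephalomyelitis (EAE), an induced T cell disease of the CNS, and all were given 30000 IU of rIFN-β daily, with no untreated chimeras among the libraries. GFP-CD45+CD11b+Ly6C hi Ly6G- cells, a monocyte gate that leaves out cells of the host, were sorted from the CNS at the peak of disease. The receptor genotype, the donor strain and the CD45 allele changed together between the groups and cannot be told apart. The age of the animals is not given in the sources used here. The labels number the libraries 1 to 3 in each group without tying them to animals, so the p-values measure the spread between these libraries. A WT and an *Ifnar1*-/- library may come from the same host, but which ones do is not given in the sources used here. The main fit took all libraries as independent. Fits with the replicate number as a block are given in the closing section.

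The libraries held 4531782 to 7321380 expected counts, the read counts that RSEM estimates per gene. Summed counts scaled to library size (CPM) of 6 monocyte gate genes were 7824 to 9325 in WT and 8391 to 9591 in *Ifnar1*-/- libraries. Of these 6, the sort marker *Ly6c2* was called higher in WT (640 to 788 against 177 to 337 CPM, 2.65-fold, edgeR adjusted p = 0.00957), and *Ccr2*, not called, was lower in every WT library (587 to 694 against 794 to 1269 CPM). Summed neutrophil markers varied from 232 to 2221 CPM in WT and from 699 to 2595 CPM in *Ifnar1*-/- libraries, and summed T cell markers were 20.2 to 47.5 CPM against 7.80 to 20.6 CPM. 9 of 10 neutrophil and 7 of 8 T cell genes were tested and 0 were called, although the log2 fold changes of all 7 T cell genes were positive, from 0.94 to 1.80. The part of these cells and of the gate genes in the results was not tested. *Ifnar1* itself had 153, 126 and 111 CPM in WT and 110, 102 and 109 CPM in *Ifnar1*-/- libraries (log2 fold change 0.28, SE 0.15, edgeR adjusted p = 0.36). A count over a whole gene does not show which exons were read, so this level is no check of the deleted allele. In TPM, a level per transcript length, the 7SL RNA genes *Rn7s1* and *Rn7s2* took 330214 TPM in WT library 1 and 114991 to 153238 TPM in the other 5, which lowers the deposited TPM of the other genes in that library.

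TRIM proteins carry a RING domain, 1 or 2 B-boxes and a coiled coil, and most are ubiquitin E3 ligases whose C-terminal domain decides what they bind. Several of them act in innate immunity: they ubiquitinate RNA sensors and their adaptors, bind viral capsids, or take antibody-coated virus to the proteasome. Other members are known mainly as transcriptional corepressors, cytoskeletal proteins or muscle proteins. Of these, *Trim28* and *Trim32* were also listed here among the members linked to antiviral signalling.

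27 members reached a mean of 1 TPM over the 6 libraries, and 15 reached 5 TPM. *Trim25*, the E3 ligase known for acting on the RNA sensor RIG-I, stood highest with 78.1 TPM. *Trim28* (KAP1), the corepressor that zinc finger proteins bring to retroelements, followed with 42.03 TPM. *Trim8*, a regulator of NF-κB signalling, had 25.2 TPM, *Trim21*, the cytosolic antibody receptor, 23.2 TPM and *Trim41* 16.5 TPM. When TPM was scaled anew over the protein-coding nuclear genes of each library, the means of these 5 were 180, 95.4, 58.2, 51.9 and 37.1 and their order did not change. On that scale, the step to the next gene was larger than the SD over libraries of both genes only from *Trim25* to *Trim28*, from *Trim28* to *Trim8* and, at the low end, from *Trim62* to *Trim45*; the other neighbours in the order could not be separated. *Trim25* made up 25.4% to 28.1% of the summed deposited TPM of all 60 members in WT libraries and 17.01% to 21.8% in *Ifnar1*-/- libraries. All members together were 0.0797% to 0.0937% of protein-coding nuclear TPM in WT and 0.0610% to 0.0670% in *Ifnar1*-/- libraries, without overlap. Taken singly, 11.1% of all tested genes had every WT library above every *Ifnar1*-/- library in normalized CPM. The sum weighs abundant members most and is not a shift of each member, since 11 of the 29 tested had a negative log2 fold change.

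**Figure D1:**
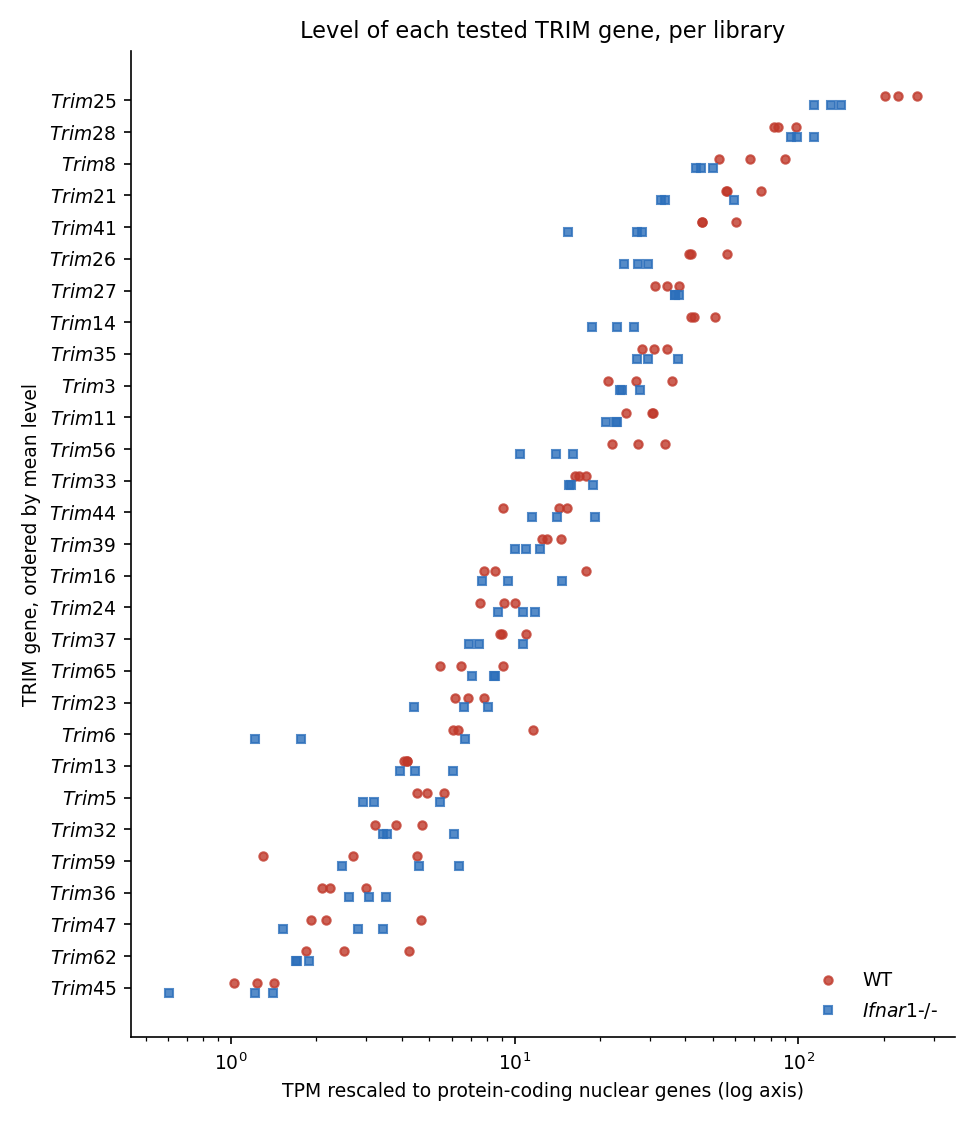
TPM rescaled over protein-coding nuclear genes (horizontal log axis) of each tested TRIM member in each WT library (circles) and each *Ifnar1*-/- library (squares), with genes ordered by mean level. *Trim25* and *Trim28* lead the order with means of 180 and 95.4, and *Trim45* stands last of the tested members.

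*Trim14* was the 1 member called between WT and *Ifnar1*-/- monocytes, where called means an edgeR adjusted p of at most 0.05 and at least a 1.5-fold difference. It was higher in WT, and no member was called lower. Across all 11254 genes tested, 2.13% were called, 1.67% higher in WT and 0.462% lower, and 1 of the 29 members is a share near this background in this fit. The log2 fold change was positive in 18 members and negative in 11, whereas 48.2% of all tested genes were positive, and the median was 0.17 in the members and -0.01 in all tested genes. Every WT library lay above every *Ifnar1*-/- library in 10 members (11.1% of all tested genes did so) and below in 2 members (12.2%). The exact permutation test gives a two-sided p of 0.1 for each of these 12 members, which is the smallest that 3 libraries against 3 allow. The 10 members were *Trim6*, *Trim8*, *Trim11*, *Trim14*, *Trim21*, *Trim25*, *Trim26*, *Trim41*, *Trim56* and *Trim62*. By their definition, the highest of the 6 values in these 10 lies in a WT library, and in 8 of them it was WT library 1. Over all 29 tested members, WT library 1 held the highest value in 11. Among all tested genes the highest value was in WT library 1 for 24.2%, in WT library 2 for 12.9% and in WT library 3 for 13.2%.

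**Figure D2:**
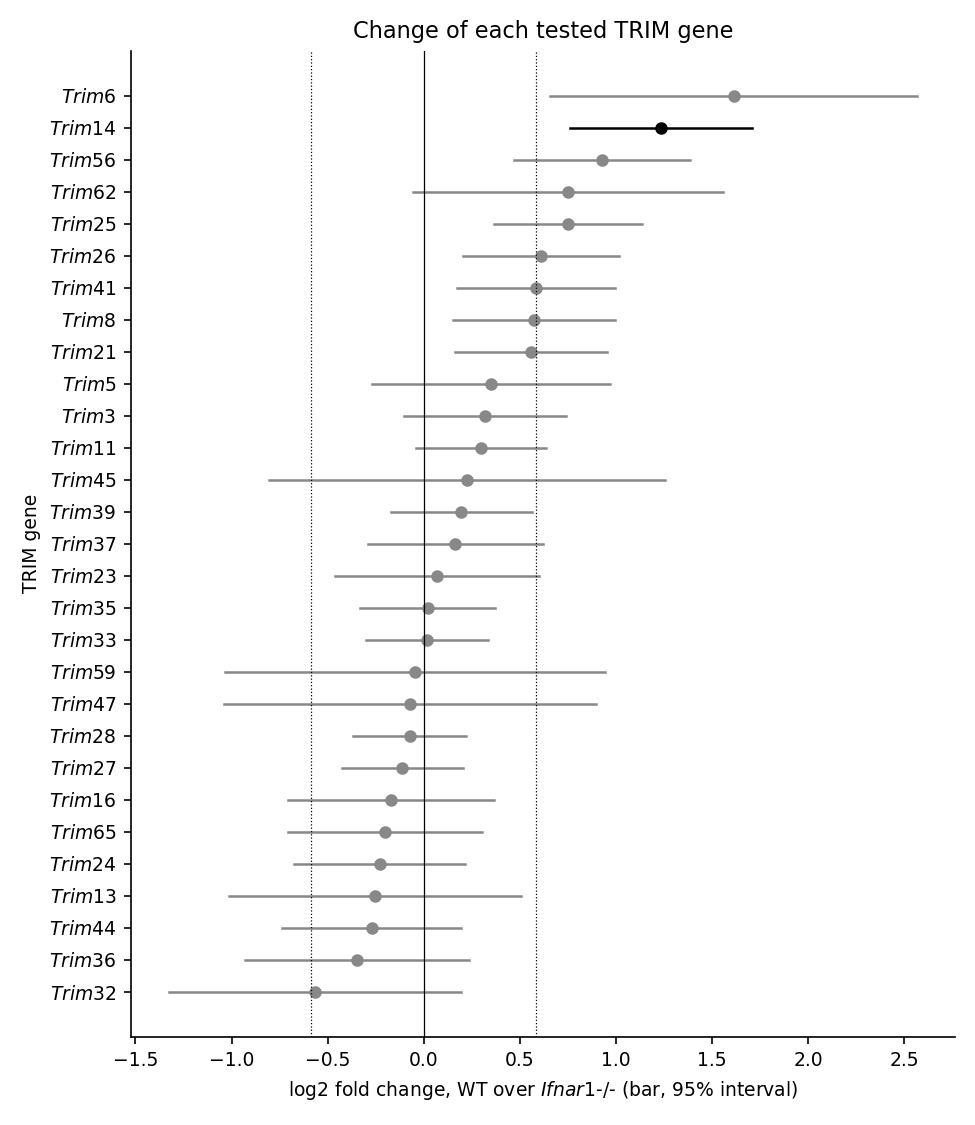
Log2 fold change of WT over *Ifnar1*-/- monocytes for the 29 tested members (points) with 95% intervals from edgeR (lines), ordered by size. The interval lies above 0 for 8 members (9.69% of all tested genes) and below 0 for none (8.14%), and *Trim14* is the 1 called.

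*Trim14* encodes a TRIM protein without a RING domain that sits on mitochondria with the adaptor MAVS and has been linked to RIG-I and cGAS signalling. The gene (ENSMUSG00000039853.18) spans chr4:46493781-46536141 on the minus strand of GRCm38. Its normalized level was 30.2, 20.8 and 24.5 CPM in WT libraries and 8.70, 10.7 and 12.9 CPM in *Ifnar1*-/- libraries. The lowest WT value stood well above the highest *Ifnar1*-/- value, and the means were 25.2 ± 4.71 and 10.8 ± 2.09 CPM (SD, n = 3 each). WT was 2.36-fold higher (log2 fold change 1.24, SE 0.21, 95% interval 0.76 to 1.71, edgeR adjusted p = 0.0134). The call was lost without *Ifnar1*-/- library 1 (adjusted p = 0.0705 by edgeR, log2 fold change 1.12) and without *Ifnar1*-/- library 2 (adjusted p = 0.0521, log2 fold change 1.25). It was also lost in the 3 limma fits of TPM, with log2 fold changes of 0.91 to 0.97 and limma adjusted p of 0.155 and 0.161 in deposited TPM and 0.0519 in rescaled TPM, where *Trim25* was the 1 member called. In sorted cells measured in bulk, fewer cells that express a gene and less of its RNA per cell cannot be told apart. *Trim14* overlaps *Nans* on the opposite strand, and the strand setting of the counting is not given in the sources used here.

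3 further members came next in order of p without being called. *Trim56* encodes an E3 ligase that has been tied to the DNA sensing adaptor STING and to restriction of RNA viruses (chr5:137105644-137116209, minus strand). It had 76.1, 57.4 and 53.3 CPM in WT and 28.9, 42.7 and 26.9 CPM in *Ifnar1*-/- libraries, a 1.90-fold difference with an edgeR adjusted p of 0.0505. The values did not overlap, and the 95% interval of the log2 fold change of 0.93 ran from 0.47 to 1.39.

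*Trim25* (chr11:88999376-89020293, plus strand) had 288, 195 and 223 CPM in WT and 152, 124 and 145 CPM in *Ifnar1*-/- libraries. In TPM it was 89.1, 101 and 108 against 58.8, 56.3 and 54.96, again without overlap. The most abundant member was thus 1.68-fold higher in WT (log2 fold change 0.75, SE 0.17, edgeR adjusted p = 0.061), short of the threshold.

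*Trim6*, which makes free ubiquitin chains used by the kinase IKKε, had the largest fold change of the 29 but few reads. Its counts were 39, 11 and 25 in WT and 7, 10 and 8 in *Ifnar1*-/- libraries, so that 1 WT library came within 1 count of an *Ifnar1*-/- library before scaling. The log2 fold change was 1.61 with an SE of 0.43 (95% interval 0.66 to 2.57, edgeR adjusted p = 0.094). In deposited TPM the groups overlapped, with 2.14, 3.03 and 5.58 in WT and 0.73, 0.60 and 2.81 in *Ifnar1*-/- libraries.

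4 members had intervals above 0 at smaller differences. *Trim26*, an E3 ligase whose nuclear target includes IRF3, had 56.4, 35.3 and 47.4 CPM in WT and 29.01, 28.5 and 33.8 CPM in *Ifnar1*-/- libraries. *Trim41* had 21.3, 16.6 and 16.6 CPM against 11.6, 11.9 and 13.1 CPM. It lies across *Rack1*, a highly expressed gene on the opposite strand, and its log2 fold change of 0.58 in counts was up to 1.11 in the fits of TPM. *Trim21* had 28.03, 35.9 and 32.97 CPM in WT and 19.7, 26.4 and 19.5 CPM in *Ifnar1*-/- libraries, with the second *Ifnar1*-/- library close to the first WT library, and the groups overlapped in deposited TPM (18.8, 27.97 and 35.4 against 13.6, 29.4 and 14.2). *Trim8* had 131, 78.0 and 95.8 CPM against 66.3, 74.7 and 63.8 CPM, and here the lowest WT and highest *Ifnar1*-/- libraries almost met. The log2 fold changes of *Trim26*, *Trim41*, *Trim21* and *Trim8* were 0.61, 0.58, 0.56 and 0.58, with SE of 0.18 to 0.19 and edgeR adjusted p between 0.128 and 0.155. None was called. The log2 fold change of *Trim8* was 0.174 with offsets for GC content and length and 0.355 without WT library 1.

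**Figure D3:**
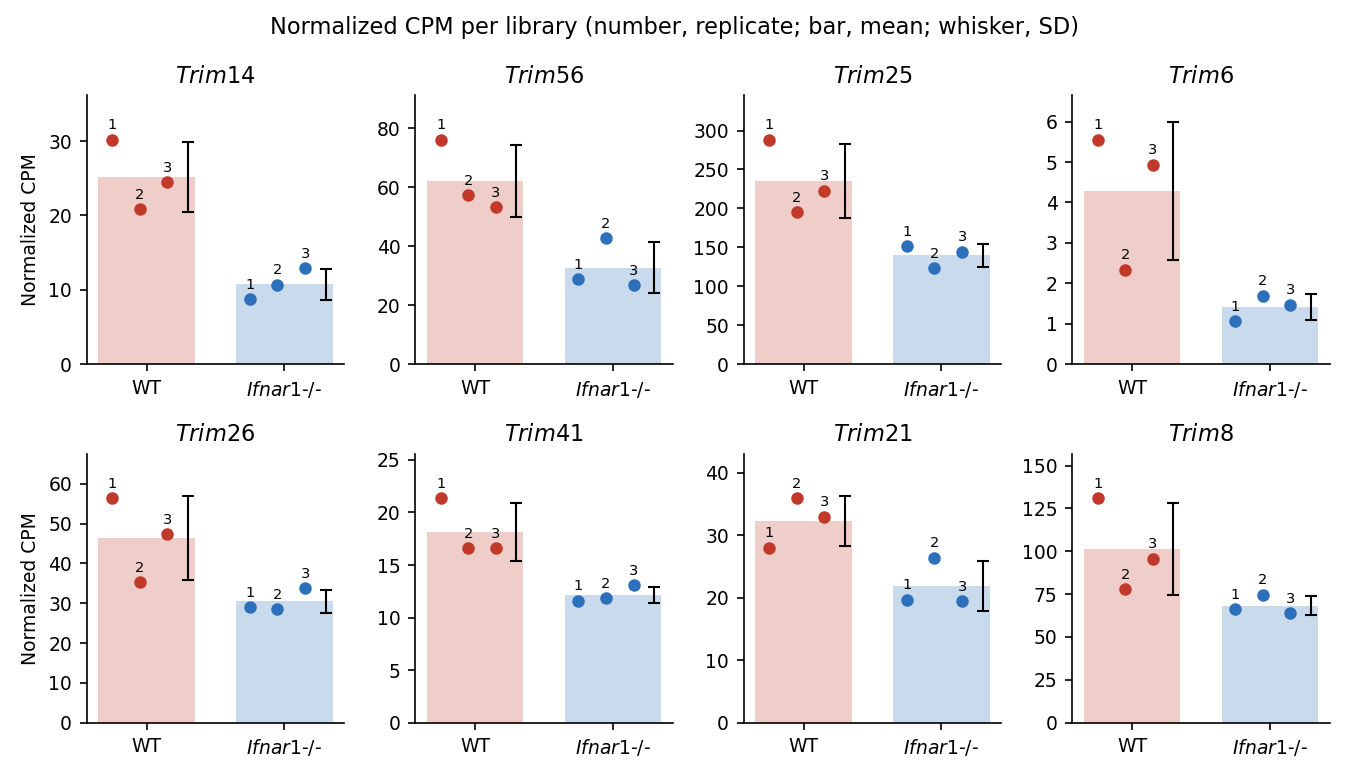
Normalized CPM per library for the 8 members whose 95% interval lies above 0 (points numbered by replicate; bars, mean of 3 libraries; whiskers, SD). In 7 of the 8 genes the highest point is WT library 1, and the exception is *Trim21*.

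Among the members known from antiviral signalling *Trim14* alone was called, and those not yet described follow. *Trim5*, which in mice belongs to a group of genes related to the capsid-binding factor TRIM5α of primates, had 8.11, 7.65 and 9.08 CPM in WT and 5.35, 9.15 and 4.97 CPM in *Ifnar1*-/- libraries. The second *Ifnar1*-/- library was the highest of the 6, and the log2 fold change was 0.35 (SE 0.28, edgeR adjusted p = 0.555). *Trim5* was also the only tested member with counts that were not whole numbers, in all 6 libraries, which shows that RSEM divided reads between it and other genes.

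*Trim23*, a TRIM protein with an ARF GTPase domain, had 10.1, 12.5 and 10.9 CPM in WT and 13.3, 7.63 and 10.9 CPM in *Ifnar1*-/- libraries, with the groups overlapping throughout. *Trim65*, a ligase of the RNA sensor MDA5, had 9.68, 8.29 and 13.2 CPM against 10.4, 13.2 and 12.3 CPM. *Trim13*, anchored in the endoplasmic reticulum, stayed between 2.57 and 4.07 CPM in all libraries. Log2 fold changes of these 3 were 0.07, -0.20 and -0.25, each with a 95% interval that included 0. *Trim38*, a ligase that restrains Toll-like receptor signalling, had 0 counts in 5 libraries and 2 counts in *Ifnar1*-/- library 3, too few for a comparison.

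2 members had every WT library below every *Ifnar1*-/- library, at small differences. *Trim27* had 26.8, 25.1 and 28.4 CPM in WT and 28.6, 29.2 and 29.1 CPM in *Ifnar1*-/- libraries (log2 fold change -0.11, 95% interval -0.43 to 0.20). *Trim32*, an NHL repeat E3 ligase best known from muscle, had 1.85, 3.19 and 3.16 CPM against 3.67, 4.07 and 4.23 CPM. Its log2 fold change of -0.57 was the most negative of the members (SE 0.34, edgeR adjusted p = 0.424). *Trim36* and *Trim44* were next in order of p among the members with lower WT values. *Trim36* had 4.70, 4.46 and 6.12 CPM in WT and 7.33, 5.59 and 6.44 CPM in *Ifnar1*-/- libraries (log2 fold change -0.35, edgeR adjusted p = 0.532). *Trim44*, a TRIM protein with a deubiquitinase-like zinc finger, had 37.1, 24.02 and 32.97 CPM against 29.9, 47.3 and 37.0 CPM (log2 fold change -0.27, edgeR adjusted p = 0.54). In both genes the groups overlapped.

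The PHD-bromodomain members act in the regulation of transcription, and 3 of the 4 were tested, with 0 called. *Trim28* had 72.7, 79.5 and 67.7 CPM in WT and 78.6, 79.1 and 73.6 CPM in *Ifnar1*-/- libraries (log2 fold change -0.07, 95% interval -0.37 to 0.22). *Trim33* (TIF1γ), which binds SMAD proteins in TGF-β signalling and has a role in myeloid cells, had 38.3, 35.7 and 31.2 CPM against 33.3, 37.3 and 33.5 CPM (log2 fold change 0.02, 95% interval -0.30 to 0.34). *Trim24* (TIF1α) had 9.25, 10.8 and 13.2 CPM in WT and 12.98, 13.4 and 12.5 CPM in *Ifnar1*-/- libraries (log2 fold change -0.23, 95% interval -0.68 to 0.22), while *Trim66* had at most 2 counts in any library. The intervals of *Trim28* and *Trim33*, with those of *Trim27*, *Trim35* and *Trim39*, lay within a 1.5-fold difference in either direction, and this held for no other tested member. Of the 10 genes of the KAP1 corepressor, which comprises *Trim28*, the methyltransferase *Setdb1*, HP1 proteins and the NuRD subunits *Chd3* and *Chd4*, 10 were tested and 0 were called. Across all tested genes 2.13% were called, and 0 of 10 here, like 0 of 3 above, is near this share. Their median log2 fold change was -0.06, from -0.59 in *Cbx5* to 0.88 in *Chd3*, where the groups overlapped. Every WT library lay below every *Ifnar1*-/- library in 3 of the 10, *Cbx5*, *Cbx3* (-0.43) and *Hdac2* (-0.41), and above in 1, *Atf7ip* (0.34). Of all tested genes, 12.2% lay below and 11.1% above.

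The domain classes used here do not overlap, and members without a RING domain were kept as a class of their own whatever their C-terminal domain. *Trim14* and *Trim16* were therefore not counted in the SPRY class. That class, the largest and the one that binds most known viral and antibody ligands, held 28 members. Of these, 13 were tested and 0 were called, which is near the 2.13% called among all tested genes. The log2 fold changes of the 13 had 0.35 as their median. The count of 0 does not speak for *Trim14* or for SPRY domains in other classes. The 3 tested PHD-bromodomain members had a median of -0.07 and the 2 tested NHL members one of -0.12. Among the 4 members without a RING domain, *Trim14* was called and *Trim16* and *Trim44* were not, at -0.17 and -0.27. *Trim8* and *Trim56* were the 2 tested among the 6 members with no further C-terminal domain. Of 8 COS box members, which bind microtubules, *Trim36* alone had enough counts.

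The members left untested had at most 8 counts in any library. 27 of these 31 had at most 3 counts everywhere, and *Trim2*, *Trim7*, *Trim46* and *Trim68* had more in at least 1 library. A floor of 3 counts corresponds to 0.427 to 0.638 CPM, so a level under this could not be told from none at this depth. None of the 4 members best known from muscle, among them the atrophy ligase *Trim63* (MuRF1), was tested, nor was any of the 2 known from erythroid cells or the 9 known from the germ line or early embryo. Of the 5 known from brain, only *Trim3* was tested, with 26.04, 17.2 and 21.3 CPM in WT and 17.9, 18.0 and 16.2 CPM in *Ifnar1*-/- libraries. In these cells sorted from the CNS, *Trim2*, *Trim9*, *Trim46* and *Trim67* had between 0 and 7 counts. Summed neural marker genes were 45.9 to 65.2 CPM in WT and 46.4 to 51.5 CPM in *Ifnar1*-/- libraries. Most of this sum was 1 gene, *Mbp*, with 41.2 to 52.8 CPM in WT and 39.5 to 47.5 CPM in *Ifnar1*-/- libraries. *Mog* had 0 counts in every library, and *Gfap* and *Mobp* reached 47 and 26 counts.

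The members are spread over 15 chromosomes, with 11 on chromosome 11, 8 on chromosome 7 and 6 on chromosome 17. *Trim5* lies inside the span of the *Trim30* cluster (chr7:104244457-104507849) and *Trim6* 9305 bases from it. None lies within 20 Mb of *Ifnar1* or of *Ptprc*, the gene of the CD45 allele that separates the donors.

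Interferon acts on many genes through the interferon-stimulated response element (ISRE), which IRF factors bind. Its core was searched, on both strands, as GAAA, any 2 bases and GAAA in RefSeq windows from 250 bases before to 50 bases after the start (GRCm38.p6). 45 of the 60 members and 20 of the 29 tested ones had a window. *Trim3*, *Trim8*, *Trim11*, *Trim14*, *Trim16*, *Trim33*, *Trim35*, *Trim36* and *Trim65* had none. The ISRE core was in 3.44% of all 32851 windows, or for 3.99% of genes, and in the windows of 4 members, *Trim2*, *Trim5*, *Trim21* and *Trim26*. Of the 7 members with a window in which every WT library lay above every *Ifnar1*-/- library, *Trim21* and *Trim26* held it. The stretches below show the ISRE core where tested members hold it, read 5′ to 3′ on the strand of the gene with the matched letters in capitals. In *Trim21* (chr7:102565447-102565476, minus strand, 6 to 35 bases after the start) 2 overlapping matches form 1 run. In *Trim26* (chr17:36836946-36837115, plus strand, 200 to 31 bases before the start) 2 overlapping matches lie on the opposite strand. In *Trim5* (chr7:104288136-104288165, minus strand, 59 to 30 bases before the start) 1 match lies on the opposite strand.
Trim21: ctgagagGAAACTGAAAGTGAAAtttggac
Trim26: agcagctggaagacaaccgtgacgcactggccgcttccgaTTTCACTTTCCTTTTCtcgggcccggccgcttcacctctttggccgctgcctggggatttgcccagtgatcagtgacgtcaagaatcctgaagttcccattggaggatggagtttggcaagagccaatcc
Trim5: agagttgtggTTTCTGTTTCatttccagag

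*Trim56* and *Trim25*, next after *Trim14* in order of p, did not hold the ISRE core in their windows, which says only that these letters are not there. The stretch from 200 to 31 bases before the start is shown for comparison with *Trim26*, for *Trim56* at chr5:137116238-137116407 on the minus strand and for *Trim25* at chr11:88999203-88999372 on the plus strand, with no capitals since nothing matched. A match describes letters and is not evidence that a factor binds.
Trim56: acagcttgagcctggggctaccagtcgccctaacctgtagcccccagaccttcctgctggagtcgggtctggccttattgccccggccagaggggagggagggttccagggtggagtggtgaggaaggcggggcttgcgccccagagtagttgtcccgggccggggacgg
Trim25: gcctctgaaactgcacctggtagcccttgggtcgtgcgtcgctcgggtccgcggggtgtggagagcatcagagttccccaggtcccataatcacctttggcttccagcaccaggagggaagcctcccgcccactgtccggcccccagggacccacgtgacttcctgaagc

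Other TRIM genes of the same libraries had larger differences. In the *Trim30* cluster, 6 of 7 tested genes were called higher in WT, at a median of 2.02 on the log2 scale, and *Trim12c* was not called (0.52, edgeR adjusted p = 0.152). Of all tested genes, 1.67% were called higher. Of 3 tested TRIM genes with other names, *Pml* (TRIM19), the scaffold of nuclear bodies, was called higher (1.87, edgeR adjusted p = 0.00129), while *Mefv* (0.23) and *Mid1* (0.20) were not. Among the members, *Trim6* (1.61) and *Trim14* (1.24) had log2 fold changes between those of *Trim12a* (0.96) and *Trim30a* (1.68), and *Trim5*, located within the cluster, had 0.35. The difference between the members and the cluster was not tested as such.

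**Figure D4:**
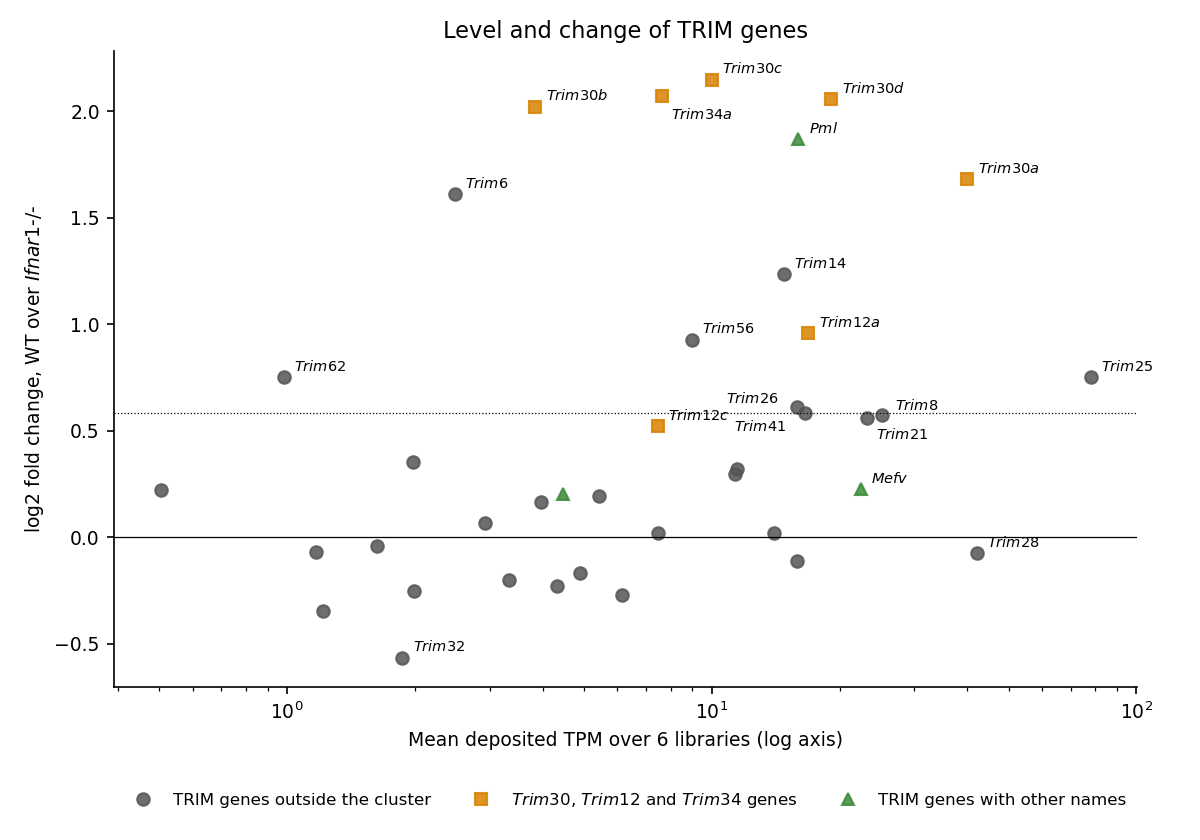
Mean deposited TPM over the 6 libraries (log axis) against the log2 fold change of WT over *Ifnar1*-/- monocytes, for TRIM members (circles), *Trim30*, *Trim12* and *Trim34* genes (squares) and TRIM genes with other names (triangles); the dotted line is a 1.5-fold difference. *Trim25* is the most abundant at 78.1 TPM with a change of 0.75, whereas the cluster genes with a change near 2.02 lie at lower levels.

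The partners of TRIM proteins in nucleic acid sensing were read from the same fit. 17 of 18 genes of that list were tested, and 9 were called higher in WT and 0 lower, with a median log2 fold change of 0.94. Of all tested genes, 1.67% were called higher and 0.462% lower, with a median of -0.01. The list was chosen with earlier results of these data known. The 9 were the RNA sensors *Ddx58* (RIG-I, 2.38), *Ifih1* (MDA5, 1.65) and *Dhx58* (1.94), the DNA sensor *Cgas* (1.501), the RIG-I cofactor *Zc3hav1* (0.76), the transcription factor *Irf7* (4.08), and *Isg15* (3.56), *Herc6* (1.62) and *Usp18* (4.09) of the ISG15 conjugation system. The adaptors *Mavs* (0.21) and *Tmem173* (STING, 0.03), the kinase *Tbk1* (0.13) and *Irf3* (0.18) were not called, and *Rnf135*, the other RIG-I ligase with a SPRY domain, was not either (0.94, edgeR adjusted p = 0.131). The RIG-I ligase *Trim25* and the MDA5 ligase *Trim65*, at 0.75 and -0.20, thus had smaller log2 fold changes than the sensors they act on, a difference between genes that was not tested.

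The number of members called depended on the fit. Over 21 alternatives it was 0 to 5, and no fit called a member lower. Of the 21, 1 was the same edgeR fit called by adjusted p alone, without the fold threshold. By DESeq2 3 of 27 tested members (11.1%) and 3.83% of all genes were called. Over the 21 fits the share ran from 0% to 13.8% of the tested members and from 1.03% to 4.1% of all genes, with 4 of 29 members and 2.97% of all genes in the fit with the highest share of members. *Trim14* was called in 16 of the 21, the same edgeR fit included, *Trim56* in 8, *Trim25* in 7, *Trim26* in 2, and *Trim6* and *Trim21* in 1 each. *Trim6* had no adjusted p in 2 of the fits, where it fell under a filter on low counts. The log2 fold changes themselves moved less and stayed positive, from 0.91 to 1.40 in *Trim14*, 0.66 to 1.18 in *Trim56* and 0.59 to 0.88 in *Trim25*.

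**Figure D5:**
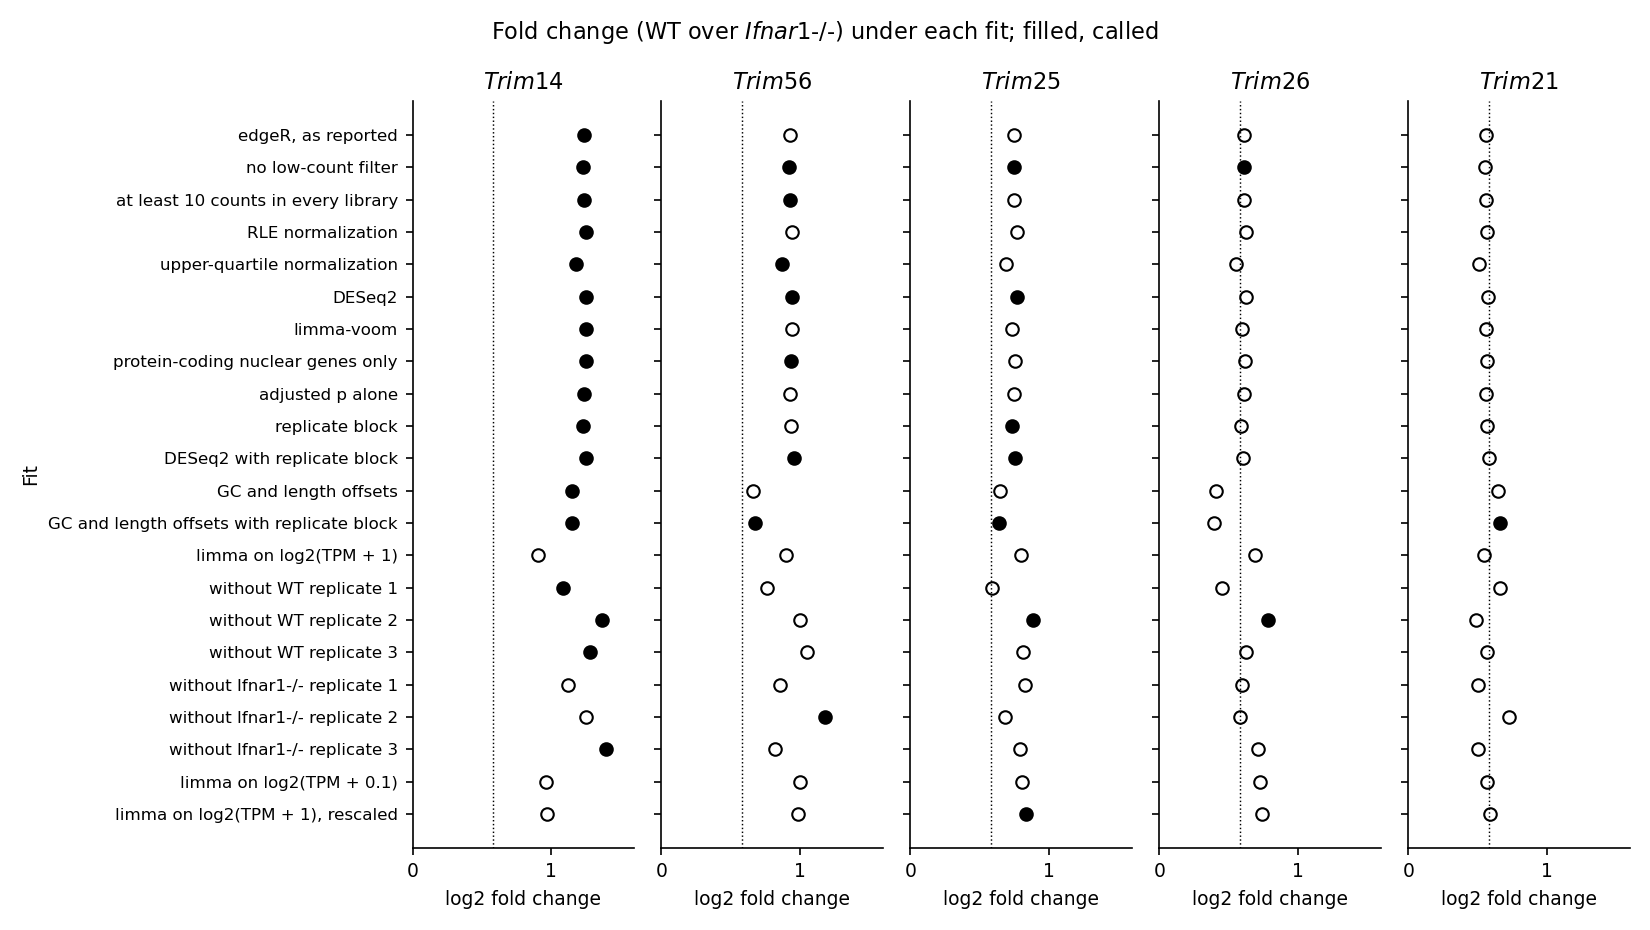
Log2 fold changes of WT over *Ifnar1*-/- monocytes for *Trim14*, *Trim56*, *Trim25*, *Trim26* and *Trim21* (columns) in the edgeR fit and in each of 21 alternatives (rows). Filled points were called, and the dotted line is a 1.5-fold difference. The row for adjusted p alone repeats the edgeR fit without the fold threshold. Values stay positive in these 5 genes, and *Trim14* is filled in more fits than the other 4.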

How the data were processed

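RNA-seq was measured in 6 libraries of sorted CNS monocytes, 3 WT and 3 *Ifnar1*-/-. The authors aligned reads with STAR 2.6.0c to GRCm38 and quantified genes with RSEM 1.2.31, per the submitters' processing notes, and deposited expected counts and TPM per gene and library. The labels and methods name different library kits, and the strand setting is not given in the sources used here. Expected counts were rounded and tested with the quasi-likelihood test of edgeR 4.0.16 (R 4.3.3; TMM factors, filterByExpr with a minimum count of 10, Benjamini-Hochberg adjustment over 11254 genes). Calls needed an adjusted p no higher than 0.05 and a 1.5-fold difference, WT over *Ifnar1*-/-. The study used DESeq2, which was an alternative here (DESeq2 1.42.0), as was limma 3.58.1 on log2(TPM + 1). The fit was tested on simulated data first. Gene names came from GENCODE M21, which matched 54165 of 54232 identifiers, and 67 were not matched. Libraries of a group differed by more than counting noise (chi-square per degree of freedom 11.1 to 38.2). A count of 3 was the floor, which covers counting error only. Members, lists, domain classes and tests were chosen with earlier results of these data known. Library values were given for called members, members tied to antiviral signalling, the 5 highest in TPM, the 3 lowest p in each direction that were not called, and the bromodomain members, and others were added after their values were seen. Alternatives are described in the closing section. A second promoter motif is not reported here.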

Additional observations from a re-analysis of the deposited data

How the results depend on the processing

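The number of TRIM members called higher in WT was 1 by edgeR. It was 5 with no low-count filter, 4 with GC and length offsets and the replicate block, 3 by DESeq2 with or without the block, 2 with at least 10 counts in every library, with upper-quartile normalization, with protein-coding nuclear genes only and with the replicate block alone, and 0 by limma on log2(TPM + 1) and log2(TPM + 0.1). Leaving out 1 library gave 0 to 3: 0 without *Ifnar1*-/- library 1 and 3 without WT library 2. Without *Ifnar1*-/- library 2 the 1 member called was *Trim56*. The median log2 fold change of the tested members, 0.17, was 0.116 with at least 10 counts, 0.111 with upper-quartile normalization, 0.0673 with GC and length offsets, 0.0636 with these and the block, 0.0982 and 0.13 in TPM with pseudocounts 1 and 0.1, 0.132 in rescaled TPM, an alternative chosen after seeing the data, and 0.143 to 0.219 with 1 library left out. Of all genes, 188 were called higher and 52 lower. These were 610 and 262 with no filter, 314 and 105 by DESeq2, 112 and 16 with TPM + 1, and 111 and 13 with TPM + 0.1. With 1 library left out they were 110 (without *Ifnar1*-/- library 3) to 204 and 7 (without WT library 3 or *Ifnar1*-/- library 1) to 41. Lower calls were 79 with offsets and block and 18 in rescaled TPM. The KAP1 list had 1 call with no filter. 15 members were expressed at a threshold of 5 TPM. *Ifnar1* turned to -0.294, -0.3 and -0.269 in the 3 TPM fits. *Trim33*, near 0, turned to -0.0341 (upper quartile), -0.00337 and -0.00455 (TPM) and -0.044 (without WT library 1), *Trim23* to -0.00712 (without WT library 2) and -0.107 (without *Ifnar1*-/- library 2), and *Trim28* to 0.00273 (without WT library 3). With 1 library left out, *Trim28* ranged from -0.121 to 0.00273, *Trim33* from -0.044 to 0.118 and *Trim23* from -0.107 to 0.289. The cause was not tested.

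Libraries with the same number were not shown to be pairs: the correlations of their deviations from the group means were 0.0872, 0.0265 and 0.289, and WT library 1 correlated more with *Ifnar1*-/- library 2 (0.101) than with library 1. With the replicate block *Trim14* and *Trim25* were called, *Trim25* at a log2 fold change of 0.737 (edgeR adjusted p = 0.0453). With GC and length offsets and the block, *Trim14*, *Trim21*, *Trim25* and *Trim56* were called. If libraries do share hosts, the main fit leaves this pairing out. Depth limits the untested members, none of which had over 8 counts.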
